A study of Mus musculus with 23 samples.

Results

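The 10 genes described here are the core of MHC class I antigen presentation in the mouse: the light chain *B2m*, the classical heavy chains *H2-K1* and *H2-D1*, the peptide transporter genes *Tap1* and *Tap2*, the loading factor *Tapbp*, the immunoproteasome genes *Psmb8*, *Psmb9* and *Psmb10*, and the coactivator *Nlrc5*. They were taken by gene symbol from both deposited tables of normalized counts, where they are 10 of 35455 genes in the table of BRAF and BRAF/PI3K tumors and 10 of 35454 in the table of PGC1α tumors. All 10 had a mean of at least 10 normalized counts in each table, as did 17558 and 17424 genes in all. RNA was sequenced from tdTomato+ cells sorted from lung tumors, in 23 libraries. Every mouse carried *Braf* CAT, an allele that after CRE recombination expresses BRAF V600E together with the fluorescent protein tdTomato, and CRE came from an adenovirus with the *Sftpc* promoter, which is active in alveolar type 2 (AT2) cells. The labels give the genotype CAT/+ to 6 libraries (BRAF: 1 at 2 weeks, 3 at 6 weeks and 2 at 12 weeks after initiation). They give CAT/+; HR/+ to 8, with a *Pik3ca* allele that expresses PI3Kα H1047R (BRAF/PI3K: 2, 4 and 2 libraries at the same weeks). At 12 weeks, 5 libraries were CAT/+; PGC1a mutant/+ (PGC1α Het) and 4 were CAT/+; PGC1a mutant/mutant (PGC1α Null), in which *Ppargc1a* is disrupted by the same CRE. The mice were 3 to 4 months old and of a mixed C57BL/6, 129 and FVB background. The 12 week mice received a lower virus dose than the 2 and 6 week mice, so week and dose cannot be told apart.

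Class I molecules show peptides from inside the cell to CD8 T cells. Proteasomes cut proteins into peptides, and in the immunoproteasome the catalytic subunits encoded by *Psmb8*, *Psmb9* and *Psmb10* take the place of those encoded by *Psmb5*, *Psmb6* and *Psmb7*. The TAP1 and TAP2 proteins carry the peptides into the endoplasmic reticulum, where tapasin, the product of *Tapbp*, helps to load them onto a heavy chain bound to β2-microglobulin. NLRC5 is a nuclear coactivator that acts at the promoters of class I genes, and interferons raise most genes of the pathway. Nearly all nucleated cells use this pathway, with high levels in immune and endothelial cells, and a sample sorted by a tumor reporter can still hold some of them.

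Several libraries stood apart from their group or label. BRAF/PI3K 12 week replicate 1 had the highest value of 14 libraries for 8 of the 10 class I genes, where 9.55% of all genes peaked in it, and the differences of the 10 genes between genotypes over all weeks and at 12 weeks are given with and without it. Of the 14 libraries of that table, 2 had a level of the Y-linked gene *Eif2s3y* that went against the labelled sex, and both were the BRAF/PI3K 12 week libraries (30.2 normalized counts in replicate 1, labelled male, and 1309 in replicate 2, labelled female). With 1 BRAF library at 2 weeks, every test that uses it takes its spread from the other groups and assumes that it would vary like them. At 2 weeks that library was labelled female and both BRAF/PI3K libraries male. *Ppargc1a* had 75.8 to 561 normalized counts in PGC1α Het libraries (median 170, n = 5) and 38.0 to 124 in PGC1α Null libraries (median 62.1, n = 4), so the groups overlapped at the targeted gene. The libraries' normalized counts summed to 16.4 to 20.3 (in units of 1000000) in the first table and 7.12 to 9.16 in the second. The values are normalized estimates, so the depth in reads is unknown. The tables were normalized separately, and levels are not compared between them. AT2 markers were abundant in all libraries of the first table, with summed levels of 89003 to 1663950 normalized counts over 16 genes, and in the second, with 454895 to 728596. Cells were sorted on tdTomato, with an empty channel set against it to separate autofluorescent cells, and no lineage marker is named in the methods. The labels number the libraries without naming the animals, so p values measure the spread between these libraries, which may be partly technical.

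Per kilobase of exon, *B2m* was the most abundant of the class I genes, with a median of 23554 normalized counts per kilobase over the 14 libraries of BRAF and BRAF/PI3K tumors. The heavy chains followed, *H2-D1* at 5489.8 and *H2-K1* at 3449.7 normalized counts per kilobase. The machinery lay far lower on the same scale, with medians of 217 for *Tapbp*, 129 for *Psmb9*, 86.2 for *Psmb8*, 57.0 for *Psmb10*, 44.3 for *Tap1*, 26.7 for *Tap2* and 20.4 for *Nlrc5*. The per-kilobase order of the PGC1α table also ran from *B2m* (3048) to *Nlrc5* (5.58).

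Of the 10 genes, 7 lie within 1 stretch of chromosome 17 in GRCm38, from the start of *Tapbp* at 33915899 to the end of *H2-D1* at 35267499. *H2-K1* (ENSMUSG00000061232.16) lies there at chr17:33996017-34000347 on the minus strand, and *H2-D1* (ENSMUSG00000073411.11) at chr17:35262730-35267499 on the plus strand. *Psmb9* (chr17:34181987-34187764, minus strand), *Tap1* (chr17:34187553-34197225), *Psmb8* (chr17:34197721-34201454) and *Tap2* (chr17:34203527-34216321) follow each other closely. *B2m* lies on chromosome 2 (chr2:122147686-122153083), and *Nlrc5* (chr8:94434356-94527272) and *Psmb10* (chr8:105935735-105938444) on chromosome 8.

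*H2-K1* and *H2-D1* encode chains that present different peptides, and they are near copies. The first 120 bases of exon 2, which encodes the start of the peptide-binding domain, are shown here as in GRCm38, with the 12 bases that differ between the genes in capitals (chr17:33999884-34000003, minus strand, and chr17:35263379-35263498, plus strand).
H2-K1: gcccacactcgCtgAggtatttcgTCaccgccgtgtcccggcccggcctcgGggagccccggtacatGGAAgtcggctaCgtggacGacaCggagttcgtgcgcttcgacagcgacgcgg
H2-D1: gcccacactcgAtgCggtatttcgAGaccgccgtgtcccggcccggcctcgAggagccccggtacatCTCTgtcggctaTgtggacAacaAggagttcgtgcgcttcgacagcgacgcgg
Over whole exons, 246 of 270 bases of exon 2 (91.1%), 243 of 276 of exon 3 (88.0%) and 265 of 276 of exon 4 (96.0%) were identical. Of all 31-base words in the transcripts of *H2-K1*, 22.8% also occur in other genes and 11.1% in *H2-D1*. For *H2-D1* these shares were 26.7% and 13.8%, and for the other 8 class I genes at most 4.62%. Reads from shared stretches were divided between genes by the authors' estimate, so the split between the heavy chains is uncertain. The reference carries C57BL/6 alleles, FVB mice carry another H2 haplotype, and the labels do not give the alleles of each mouse.

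*B2m*, the shared light chain, had 12409 normalized counts in the BRAF library at 2 weeks, 13808, 21315 and 26461 at 6 weeks, and 26466 and 10572 at 12 weeks. With PI3Kα H1047R it had 21565 and 24436 at 2 weeks, 38400.4, 19198, 14464 and 15430.5 at 6 weeks, and 52140.4 and 16141 at 12 weeks. The genotypes overlapped, and the highest value was that of BRAF/PI3K 12 week replicate 1. On the log2(normalized count + 1) scale the difference of BRAF/PI3K from BRAF over all weeks was 0.40 ± 0.31 (SE), with an adjusted p of 0.820 by limma over all 17558 genes. It was 0.23 without that library.

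*H2-K1* had 5748 normalized counts in the 2 week BRAF library, 7972, 10498 and 8777 in the 6 week libraries, and 11303 and 7287 in the 12 week libraries. In BRAF/PI3K tumors it had 6364 and 10244 at 2 weeks, 13123, 10762, 10027 and 6376 at 6 weeks, and 51016 and 12272 at 12 weeks. Both 12 week BRAF/PI3K libraries thus lay above both 12 week BRAF libraries, and replicate 1 stood at 3.89 times the next highest library of any group. Over all weeks the difference was 0.49 ± 0.37 (adjusted limma p 0.805), and 0.19 ± 0.21 without replicate 1. The difference at 12 weeks was 1.46 ± 0.55 (SE), with an unadjusted limma p of 0.0198 and an adjusted p of 1. Without replicate 1 the 12 week value was 0.44 ± 0.45.

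*H2-D1* had 7267 normalized counts in the 2 week BRAF library, 12584, 16276 and 16501 at 6 weeks, and 17978 and 8554 at 12 weeks. BRAF/PI3K tumors had 13084 and 15399 at 2 weeks, 19784, 9982, 16908 and 11236 at 6 weeks, and 15232 and 6357 at 12 weeks. Over all weeks the BRAF range of 7267 to 17978 lay within the BRAF/PI3K range of 6357 to 19784, while at 2 weeks both BRAF/PI3K libraries were above the BRAF library. BRAF/PI3K 12 week replicate 1 ranked 7 of 14 here, at 1.16 times the median of the other 13 libraries, in contrast to its ratio of 5.09 for *H2-K1*. Over all weeks the difference was 0.04 ± 0.27, with a 95% interval from -0.53 to 0.61 and an adjusted limma p of 0.983. Without that library it was 0.00396 ± 0.28.

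The ratio of *H2-K1* to *H2-D1* normalized counts was 3.35 and 1.93 in the 12 week BRAF/PI3K libraries. In the other 12 libraries of the same table it was 0.486 to 1.08, so both 12 week BRAF/PI3K libraries lay outside that range. Replicate 2 held the lowest *H2-D1* value of the 14 libraries beside an *H2-K1* value of 12272. In the PGC1α table the ratio ran from 0.632 to 1.09 in Het and from 0.694 to 1.67 in Null libraries, with the highest value in Null replicate 4. These ratios were examined after their values were seen, and no test was made of them. Bases shared between the genes and the unknown H2 alleles bear on them, and their part was not tested.

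**Figure D1:**
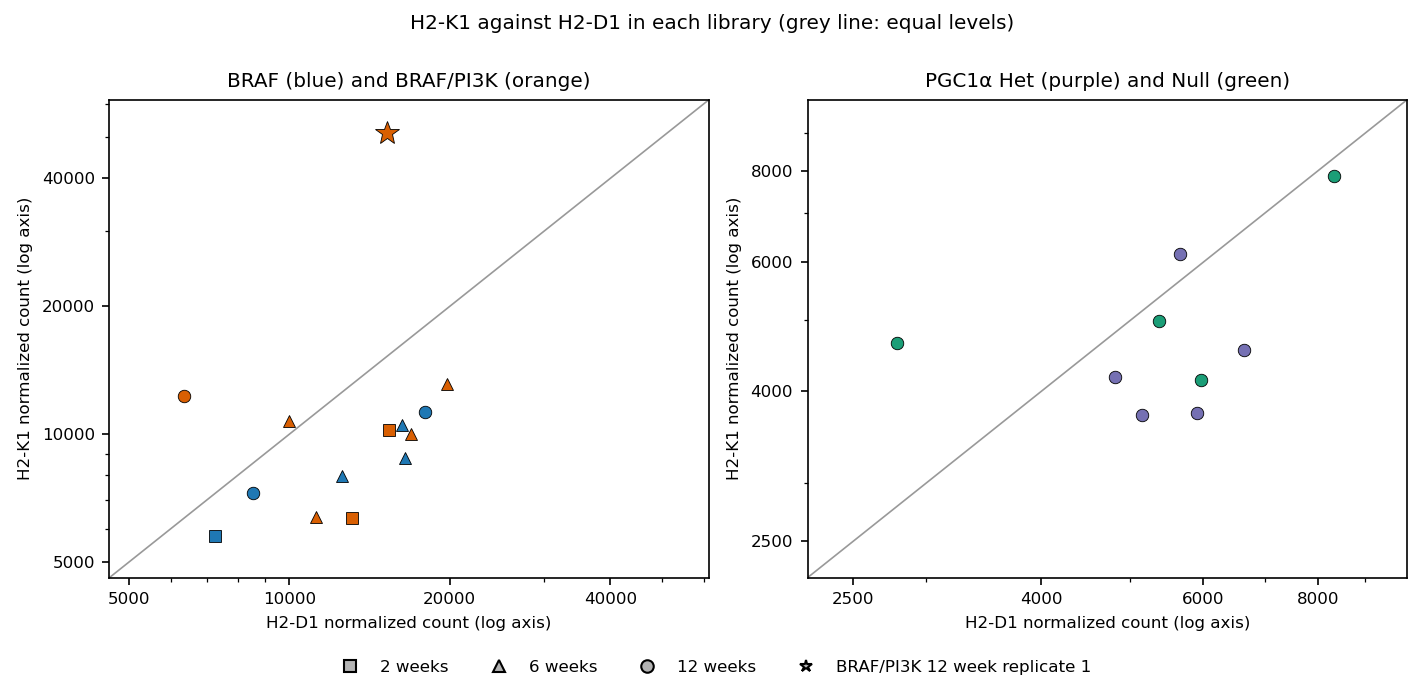
*H2-K1* against *H2-D1* normalized counts, both on log axes, in each library of the BRAF and BRAF/PI3K table (left) and of the PGC1α table (right). Symbols give the week, the star is BRAF/PI3K 12 week replicate 1 and the grey line marks equal levels. The 12 week BRAF/PI3K libraries lie above the line, at ratios of 3.35 and 1.93, and most other libraries lie below it.

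*Tap1*, which encodes a subunit of the peptide transporter, had the largest difference of the 10 genes between the genotypes over all weeks. It had 298 normalized counts in the 2 week BRAF library, 95.7, 184 and 160.2 at 6 weeks, and 201 and 214 at 12 weeks. The BRAF/PI3K libraries had 424 and 373 at 2 weeks, 244, 411, 348 and 241 at 6 weeks, and 1583 and 237 at 12 weeks. All 8 BRAF/PI3K libraries lay above the BRAF median of 192 and 5 lay above the highest BRAF value, which was that of the 2 week library. Within each week, every BRAF/PI3K library exceeded every BRAF library, as held for 0.29% of all genes (51) and for none of the other 9 class I genes. The difference over all weeks was 1.08 ± 0.39 (SE) on the log2 scale, with a 95% interval from 0.26 to 1.91, an unadjusted limma p of 0.0129 and an adjusted p of 0.571. It did not pass the threshold over all genes.

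By exact permutation of the genotype labels (two-sided), the p for *Tap1* alone was 0.00799 over 3003 splits, as 1 of 10 genes tested in the same way. The p values of the other 9 genes in this permutation test were 0.214 to 0.892 (exact). With labels exchanged only within weeks the exact p was 0.00159, the smallest that 630 splits allow and another form of the same order within weeks, and 0.227 to 0.897 for the other genes. Without BRAF/PI3K 12 week replicate 1 the log2 difference of *Tap1* was 0.79 ± 0.27, with an exact p of 0.0105 over 1716 splits and an adjusted limma p of 0.518. At 6 weeks alone it was 1.10 ± 0.53, with an exact p of 0.0286, the smallest that 3 against 4 libraries allow, and an adjusted limma p of 1. Without that library the correlation of *Tap1* with the mean of the other 9 class I genes was 0.0889 over 13 libraries, the lowest of the 10, given as a description.

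*Tap2*, for the other subunit of the transporter, had 90.5 normalized counts in the 2 week BRAF library, 20.8, 50.8 and 169.8 at 6 weeks, and 105 and 243 at 12 weeks. With PI3Kα H1047R it had 96.9 and 115 at 2 weeks, 193, 69.6, 77.0 and 22.7 at 6 weeks, and 224 and 123 at 12 weeks. The replicates spread widely, from 20.8 to 169.8 in BRAF at 6 weeks alone, and no BRAF/PI3K library exceeded the highest BRAF library. The difference over all weeks was 0.15 ± 0.55 (adjusted limma p 0.968), and it was -0.02 without BRAF/PI3K 12 week replicate 1.

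*Tapbp*, which encodes tapasin, had 340.3 normalized counts in the 2 week BRAF library, 588, 768 and 771 at 6 weeks, and 1327 and 1237 at 12 weeks. In BRAF/PI3K tumors it had 1533 and 990.3 at 2 weeks, 1649, 754, 801 and 742 at 6 weeks, and 1855 and 698 at 12 weeks. The genotypes overlapped over most of this range. The 12 against 6 week difference in BRAF was 0.86 ± 0.45, with an adjusted limma p of 1. Over all weeks the difference between genotypes was 0.46 ± 0.32 (adjusted limma p 0.790), and 0.34 ± 0.32 without BRAF/PI3K 12 week replicate 1. At 2 weeks it was 1.85 ± 0.60 (unadjusted limma p 0.00938, adjusted 0.210), against a single BRAF library.

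The immunoproteasome gene *Psmb8* had 232 normalized counts in the 2 week BRAF library, 438, 422 and 269.8 at 6 weeks, and 308 and 195 at 12 weeks. BRAF/PI3K tumors had 514 and 284 at 2 weeks, 252, 132, 299 and 302 at 6 weeks, and 1068 and 248 at 12 weeks. The BRAF/PI3K values reached beyond the BRAF range on both sides, with 1068 in 12 week replicate 1 and 514 in 2 week replicate 1 above it and 132 in 6 week replicate 2 below it. Over all weeks the difference was 0.12 ± 0.37 (adjusted limma p 0.963), and it turned to -0.13 without the former library.

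*Psmb9* had 210.0 normalized counts in the 2 week BRAF library, 307, 468 and 684 at 6 weeks, and 774 and 479 at 12 weeks. The BRAF/PI3K libraries had 751 and 433 at 2 weeks, 821, 286, 319 and 530.2 at 6 weeks, and 1146 and 377 at 12 weeks. Its order of libraries was close to that of *Tapbp*, with a correlation of 0.867 between these genes over the 14 libraries, given as a description. The difference over all weeks was 0.24 ± 0.36 (adjusted limma p 0.912), and 0.07 ± 0.34 without BRAF/PI3K 12 week replicate 1. Leaving out each library in turn gave 0.02 to 0.40.

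*Psmb10*, the third immunoproteasome subunit gene, was the lowest of these per kilobase. It had 111 normalized counts in the 2 week BRAF library, 68.4, 90.8 and 127 at 6 weeks, and 61.6 and 79.7 at 12 weeks. With PI3Kα H1047R it had 163 and 99.9 at 2 weeks, 193, 94.6, 85.6 and 51.3 at 6 weeks, and 197 and 112 at 12 weeks. Both 12 week BRAF/PI3K libraries lay above both 12 week BRAF libraries, while the 6 week libraries overlapped. The difference was 0.39 ± 0.32 over all weeks (adjusted limma p 0.826) and 1.08 ± 0.61 at 12 weeks (adjusted limma p 1). Without 12 week replicate 1 these were 0.28 ± 0.31 and 0.67 ± 0.76.

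Each subunit was also set against the constitutive subunit that it replaces, as a ratio of normalized counts not corrected for length. The ratio of *Psmb8* to *Psmb5* was 3.05 in BRAF/PI3K 12 week replicate 1 and 0.546 in replicate 2, and 0.682 and 0.683 in the 12 week BRAF libraries. BRAF/PI3K 2 week replicate 1, at 2.59, was next highest. That of *Psmb9* to *Psmb6* was 3.62 and 0.946 in the same BRAF/PI3K libraries, and 1.58 and 1.46 in BRAF. That of *Psmb10* to *Psmb7* was 0.222 and 0.128, and 0.107 and 0.133 in BRAF, but replicate 1 was not the highest here, since BRAF/PI3K 2 week replicate 1 had 0.498 and the 2 week BRAF library 0.254. The constitutive genes were not among the highest in replicate 1, where *Psmb5* ranked 9, *Psmb6* 12 and *Psmb7* 5 of 14 libraries.

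*Nlrc5*, the class I coactivator gene, spread more over the BRAF/PI3K libraries than any other of the 10 on the log2 scale. It had 22.1 normalized counts in the 2 week BRAF library, 207, 184 and 91.2 at 6 weeks, and 213 and 71.5 at 12 weeks. In BRAF/PI3K tumors it had 874 and 208 at 2 weeks, 39.0, 162, 119.7 and 231 at 6 weeks, and 1931 and 74.6 at 12 weeks. The 2 highest values, in 2 week replicate 1 and 12 week replicate 1, were far from their partners of the same week. The standard deviation of its log2 values was 1.82 over the 8 BRAF/PI3K libraries, so the difference of 1.06 ± 0.78 over all weeks did not pass (adjusted limma p 0.80). It was 0.61 ± 0.66 without 12 week replicate 1, and 4.21 ± 1.57 at 2 weeks (unadjusted limma p 0.0197, adjusted 0.267), against the single low BRAF library.

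**Figure D2:**
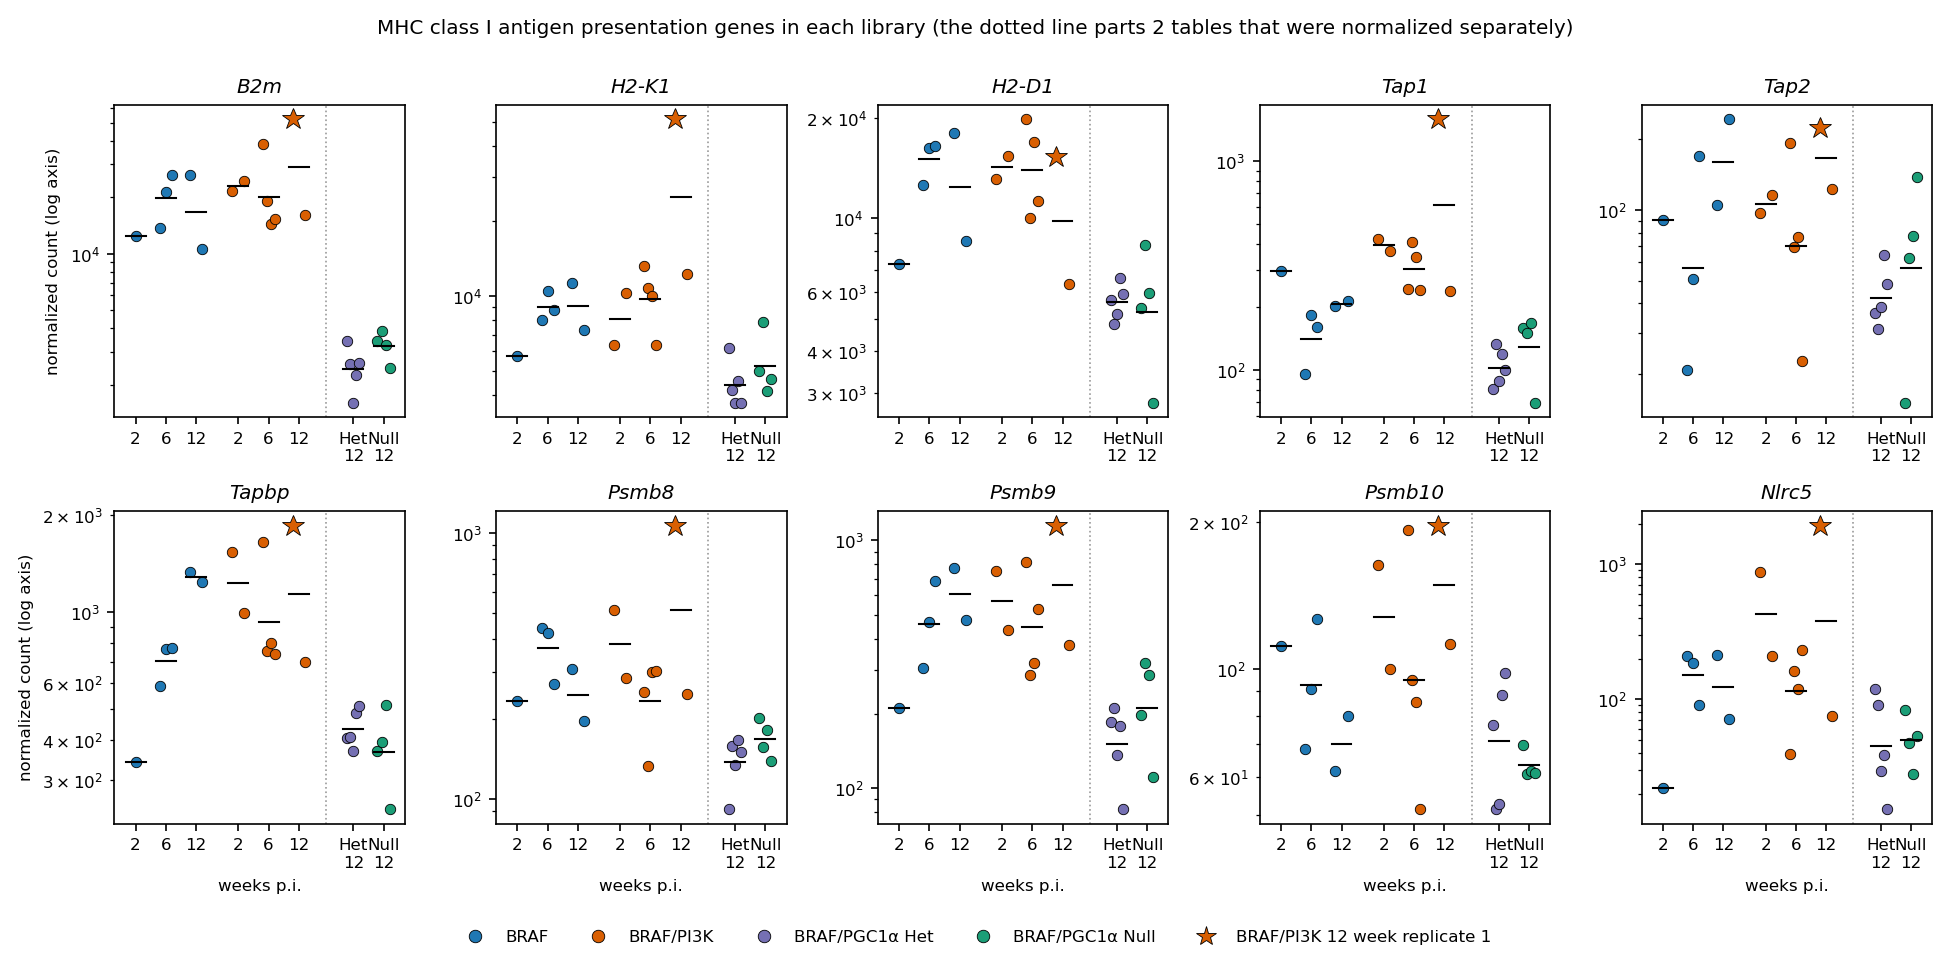
Normalized counts (log axes) of the 10 class I genes in every library, by genotype and weeks after initiation, with a bar at the mean of the log2 values of each group. The star is BRAF/PI3K 12 week replicate 1, which is highest for 8 of the 10 genes, and the dotted line parts the 2 tables, which were normalized separately.

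Across the pathway, none of the 10 genes passed an adjusted p of 0.05 between BRAF/PI3K and BRAF over all weeks, where 0.0228% of all genes (4) did, and 1200 had an unadjusted limma p under 0.05. All 10 differences were above 0, with a median of 0.39 on the log2 scale, where 51.8% of all genes lay above 0 and their median was 0.02. Without BRAF/PI3K 12 week replicate 1, 8 of 10 were above 0 and the median was 0.21. No gene of the 10 had every BRAF/PI3K library above every BRAF library, which held for 0.0854% of all genes.

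At 2 weeks none of the 10 passed, where 0.0171% of all genes did, and 2369 genes had an unadjusted limma p under 0.05. All 10 were higher in BRAF/PI3K, with a median of 0.80, and 9 had both BRAF/PI3K libraries above the BRAF library, *Psmb10* being the exception. With 1 BRAF library such an order held for 36.6% of all genes. The other cell types also differed at this week. All 20 endothelial markers were higher, with summed levels of 151363 and 179712 normalized counts against 17844 in BRAF, and 17 of 19 macrophage markers, with 8322 and 17622 against 3791. All 10 fibroblast markers were higher as well, with 61985 and 68436 against 22178. The summed level of the 16 AT2 markers was 89003 and 185713 against 860261. No endothelial marker was at 0 in this table, and *Marco*, *Fcgr4* and *C1qa* were at 0 in the BRAF library. Their part in the class I levels was not tested, and in bulk RNA fewer cells of a type cannot be told apart from less RNA per cell.

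At 6 weeks, with 3 and 4 libraries, none of the 10 passed, where 0.0228% of all genes did (4, and 744 at an unadjusted limma p under 0.05). The differences were above 0 for 6 of 10 genes and their median was 0.03. This median ranged from -0.23 to 0.23 with single libraries left out. *Tap1* was the single gene of the 10 whose groups did not overlap, which held in this direction for 2.63% of all genes.

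At 12 weeks, 8 of 10 genes were higher in BRAF/PI3K with a median of 0.93, and none passed, where 0.0114% of all genes did (2, and 661 at an unadjusted limma p under 0.05). *H2-K1*, *Tap1* and *Psmb10* had both BRAF/PI3K libraries above both BRAF libraries, as 15.4% of all genes did. The 12 week result rested on replicate 1. Without it, 4 of 10 genes were higher and the median was -0.21, on the assumption that the lone remaining library varied like those of other groups. *Tap1* went from 1.56 ± 0.69 (unadjusted limma p 0.0423, adjusted 1) to 0.19 ± 0.53 without that library. *Nlrc5* went from 1.62 to -0.72, *Psmb8* from 1.07 to 0.02 and *B2m* from 0.79 to -0.05. *Psmb9* went from 0.11 to -0.69 and *Tap2* from 0.05 to -0.38, while *H2-D1* (-0.33 and -0.96) and *Tapbp* (-0.17 and -0.88) were below 0 in both. In replicate 1 the macrophage markers summed to 41098 normalized counts against 3791 to 17622 in the other 13 libraries. The 50 interferon-stimulated genes summed to 94341 there against 16339 to 36726, while the endothelial markers, at 31237, were within the others' range of 17681 to 253805. No macrophage or endothelial marker was at 0 in that library, and of the dendritic markers *Cd209a* was. The part of these cells in its class I levels was not tested.

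The difference between genotypes was not shown to change from 6 to 12 weeks: 0 of the 10 genes and 0% of all genes passed the interaction test by limma, and 504 genes had an unadjusted p under 0.05. The median interaction of the 10 was 0.62, and -0.48 without replicate 1. *Psmb8* came nearest, at 1.72 ± 0.81 with an adjusted limma p of 1, and was 0.67 ± 0.74 without replicate 1.

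**Figure D3:**
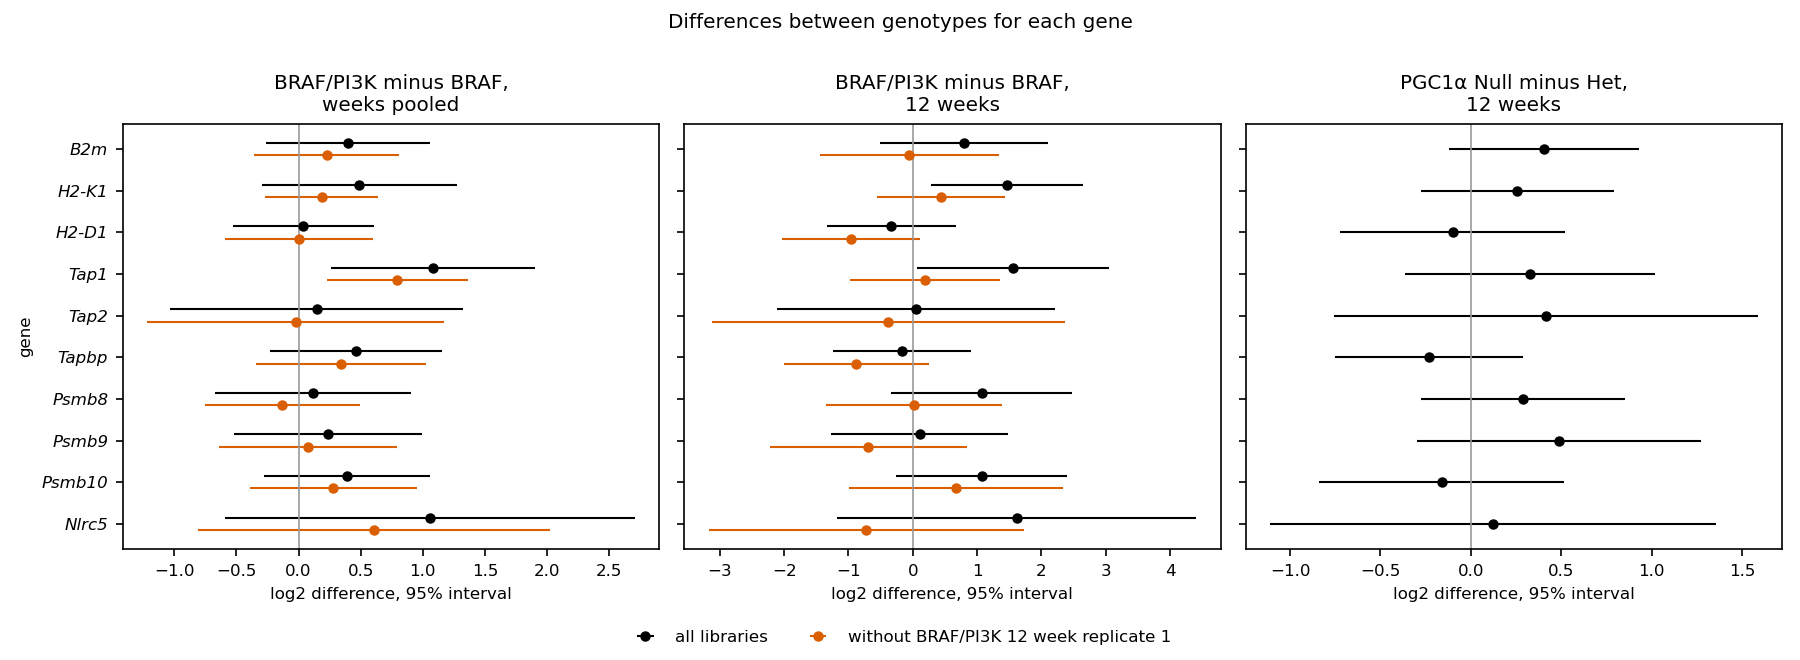
Log2 differences of the 10 class I genes with 95% intervals from limma, between BRAF/PI3K and BRAF over all weeks (left) and at 12 weeks (middle), and between PGC1α Null and Het (right). Black points use all libraries and orange points leave out BRAF/PI3K 12 week replicate 1, without which the 12 week median moved from 0.93 to -0.21. The intervals of *Tap1* over all weeks lie above 0 in both fits.

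Within genotypes, weeks were compared in the same model. In BRAF tumors 0 of the 10 genes passed from 2 to 6 weeks, as did 0% of all genes (1279 at an unadjusted limma p under 0.05), and 7 of 10 were higher at 6 weeks with a median of 0.67. Of these, *Nlrc5* had the largest difference, at 2.72 ± 1.48, against the single 2 week library. Other cell types moved with this step: 19 of 20 endothelial markers were higher at 6 weeks, with summed levels of 34482, 84892 and 132164 normalized counts against 17844 at 2 weeks. Of the macrophage markers 14 of 19 were higher, with 4612, 6755 and 10905 against 3791, and *C1qa* was at 0 in 1 of the 6 week libraries as well. Their part in the class I levels was not tested. From 6 to 12 weeks in BRAF 0 passed, with 0% of all genes (676 at an unadjusted limma p under 0.05). Here 5 of 10 were higher with a median of -0.12, which ranged from -0.26 to 0.45 with single libraries left out. In BRAF/PI3K tumors 1 of 10 was higher at 6 than at 2 weeks, *H2-K1* by 0.27, and the median was -0.40. None of the 10 passed that comparison, where 0.159% of all genes did (28, and 2346 at an unadjusted limma p under 0.05). The median ranged from -0.67 to -0.21 with single libraries left out. All 20 endothelial markers were lower at 6 weeks, with summed levels of 46371 to 253805 normalized counts (n = 4) against 151363 and 179712, and 9 of 10 fibroblast markers, with 14409 to 54179.9 against 61985 and 68436. All 16 AT2 markers were higher, with 332898 to 918671 against 89003 and 185713. None of these 3 lists had a marker at 0 in these libraries, and their part in the class I levels was not tested. From 6 to 12 weeks in BRAF/PI3K, 9 of 10 were higher with a median of 0.83, and none passed, where 0.0114% of all genes did (2, and 844 at an unadjusted limma p under 0.05). The *H2-K1* difference there was 1.36 ± 0.47 (unadjusted limma p 0.0137, adjusted 1.00), and 0.33 ± 0.41 without 12 week replicate 1. Without that library 4 of 10 were higher, with a median of -0.28. Of 19 macrophage markers 18 were higher at 12 weeks, with summed levels of 41098 and 11245.5 normalized counts against 6918 to 12573 at 6 weeks, and 12 of 17 were without replicate 1. All 10 class II genes were higher, with 96136 and 81517 against 21434 to 61089, and 9 of 9 without it. *C1qa* was at 0 in 1 of the 6 week libraries, and the part of these cells in the class I levels was not tested.

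The PGC1α libraries ask whether loss of both copies of *Ppargc1a*, a coactivator of mitochondrial genes, changes the tumor cells relative to loss of 1 copy. None of the 10 class I genes passed by limma, as did 0% of all 17424 genes, and 667 genes had an unadjusted p under 0.05. In PGC1α Null, 7 of 10 class I genes were higher, with a median difference of 0.27, where 51.15% of all genes were higher. The 5 Het and 4 Null libraries overlapped for every 1 of the 10 genes, where 0.941% of all genes had every Null library above every Het library.

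*B2m* had 3430.1, 2599, 1597, 2249 and 2621 normalized counts in PGC1α Het libraries 1 to 5 and 3409.6, 3889, 3265 and 2453 in Null libraries 1 to 4. The difference was 0.40 ± 0.24 (95% interval -0.12 to 0.93), and the exact permutation p was 0.143, the lowest of the 10 genes. *H2-K1* had 6165, 4181, 3712, 4557 and 3736 in Het and 4996, 7865, 4140.3 and 4656 in Null. Both groups held a library well above the rest for this heavy chain, and the difference was 0.26 ± 0.25. It ranged from 0.06 to 0.38 with single libraries left out. *H2-D1* had 5668, 4812, 5150.5, 6641 and 5912 in Het and 5373, 8323, 5965 and 2787 in Null. Null replicates 2 and 4 held the highest and the lowest *H2-D1* value of the table, and the difference was -0.10 ± 0.29. The same libraries held the highest and the lowest housekeeping sum of the table, 53398 and 27068 normalized counts over 10 genes, where the other 7 libraries had 32964 to 49067, and the part of this in the class I values was not tested.

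*Tap1* had 80.6, 134, 88.3, 119 and 100.1 normalized counts in Het and 159, 149.6, 167 and 69.2 in Null. Null replicates 1 to 3 lay above every Het library and replicate 4 below every Het library. Null exceeded Het by 0.33 ± 0.32 (exact permutation p 0.317), and leaving out replicate 4 gave 0.62 with an adjusted limma p of 1. *Tap2* had 36.4, 31.2, 38.7, 64.2 and 48.2 in Het and 15.02, 62.6, 77.5 and 138 in Null. Null replicate 4 was the highest for *Tap2* and the lowest for *Tap1*, and the *Tap2* difference was 0.41 ± 0.54. *Tapbp* ran from 370.1 to 509.5 in Het (median 408) and had 369.7, 395, 514 and 243 in Null, a difference of -0.23 ± 0.24.

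The immunoproteasome genes overlapped too. *Psmb9* had 186, 211, 136, 178 and 82.0 normalized counts in Het and 198, 319, 285 and 111 in Null, the largest difference of the 10 genes at 0.49 ± 0.36 (exact permutation p 0.278). *Psmb8* had 90.9, 158, 133, 167 and 150.03 in Het and 201, 156, 181 and 138 in Null, a difference of 0.29 ± 0.26. *Psmb10* ran from 51.5 to 97.9 in Het (median 76.5) and had 69.8, 60.9, 61.7 and 61.0 in Null, a difference of -0.16 ± 0.31. *Nlrc5* ran from 15.2 to 118 in Het (median 38.8) and had 83.6, 47.4, 28.1 and 53.3 in Null, a difference of 0.12 ± 0.57. All 10 adjusted limma p values were 0.998. Other cell types moved with this contrast: 17 of 18 endothelial markers were higher in Null, with summed levels of 3111 to 4530 normalized counts against 1710 to 2658 in Het, and all 9 fibroblast markers, with 549 to 1938 against 161 to 495. The macrophage markers (17 of 19 higher) summed to 3259 to 14098 in Null and 1083 to 5394 in Het. The lymphocyte markers (15 of 16 higher) summed to 504 to 1199 in Null and 271 to 702 in Het, and *Nkg7* and *Gzma* were at 0 in 2 Het libraries each and *Ifng* in 5 of the 9 libraries. Of the other lists, *Sox17*, *Sox18*, *Cldn5* and *Robo4* were at 0 in at least 1 Het library and *Plvap* in 1 Null library, and the macrophage marker *C1qa* was at 0 in 1 library of each group. Their part in the class I values was not tested.

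The rest of the pathway gave a mixed picture between BRAF/PI3K and BRAF over all weeks, and no listed gene passed. Of 19 other class I heavy chain genes tested, 13 were higher, with a median of 0.30, and the highest were *H2-T22* (1.61) and *H2-Q6* (1.31). Without BRAF/PI3K 12 week replicate 1 the median of these chains was 0.20, with 13 of 19 higher. Near copies abound in this family, and its values are uncertain in the same way as those of *H2-K1* and *H2-D1*. Of 12 genes for loading chaperones and peptide trimming, 4 were higher with a median of -0.14, and the lowest was the chaperone *Calr* (-0.51). Of 19 constitutive proteasome and activator genes, 9 were higher with a median of -0.04. Of 29 genes for regulators of class I transcription, 24 were higher with a median of 0.13 (24 of 29 and 0.12 without that library), among them the RFX subunit gene *Rfxank* (0.87).

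Of the 50 interferon-stimulated genes, 48 were higher over all weeks, with a median of 0.75, and none passed. *Mx2*, an antiviral GTPase gene, had the highest difference of all listed genes, at 4.13 with an adjusted limma p of 0.104. *Mx2* was at 0 in the 2 week BRAF library. Without BRAF/PI3K 12 week replicate 1, 42 of 49 were higher with a median of 0.44. Of 10 class II genes, 4 were higher with a median of -0.73. In PGC1α Null against Het, 12 of 19 other class I chain genes were higher with a median of 0.32, 39 of 48 interferon-stimulated genes with a median of 0.32, and 14 of 30 class I regulators with a median of -0.04. *H2-T3*, a nonclassical class I gene (-0.97), and *Oas1a*, an antiviral sensor gene (-1.06), were the lowest of all listed genes there, and the endothelial receptor gene *Tek* (3.71, adjusted limma p 0.216) and the lymphocyte protease gene *Gzma* (3.51, adjusted limma p 0.562) the highest. *Oas1a* was at 0 in PGC1α Null replicate 4. *H2-T22*, *H2-Q6*, *Calr* and *Rfxank* were chosen after their values were seen.

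Over the cell type lists, all 20 endothelial markers were higher in BRAF/PI3K over all weeks (median 0.87), as were 18 of 19 macrophage markers (0.85) and 7 of 10 fibroblast markers (0.63). All 16 AT2 markers were lower (median -0.88), among them the surfactant gene *Sftpa1* (-1.53), and so were 9 of 10 general epithelial markers, with the tight junction gene *Cldn3* lowest of all listed genes at -1.61. Without BRAF/PI3K 12 week replicate 1 the macrophage markers were higher for 14 of 17 tested (median 0.45), the endothelial median was 1.01 and the epithelial median -0.88. *Cldn3* was also the single listed gene that passed in any comparison, higher at 6 than at 2 weeks in BRAF/PI3K by 4.15 (adjusted limma p 0.00498). Lymphocyte markers were higher for 2 of 19 (median -0.27), dendritic for 4 of 7 (0.23), neutrophil for 4 of 7 (0.03), erythroid for 0 of 5 (-0.82) and housekeeping genes for 4 of 10 (-0.02). *Cd209a*, a dendritic marker, was second highest of all listed genes, at 2.35.

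The 3 libraries with the highest summed endothelial markers, BRAF/PI3K 6 week replicate 1 (253805) and both at 2 weeks, also held 3 of the 4 next highest mean levels of the class I genes after BRAF/PI3K 12 week replicate 1. Over the 13 libraries without that one, the mean log2 level of the 10 genes had a Pearson correlation of 0.868 with that of the endothelial markers, 0.706 with the interferon-stimulated genes, 0.701 with the fibroblast markers, 0.531 with the macrophage markers, -0.591 with the AT2 markers and -0.719 with the epithelial markers. With all 14 libraries these were 0.366, 0.902, -0.0810, 0.816, -0.295 and -0.196. The libraries share their scaling and their cell mixture, and these values are a description with no test. The part of these cells in the class I levels was not tested.

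**Figure D4:**
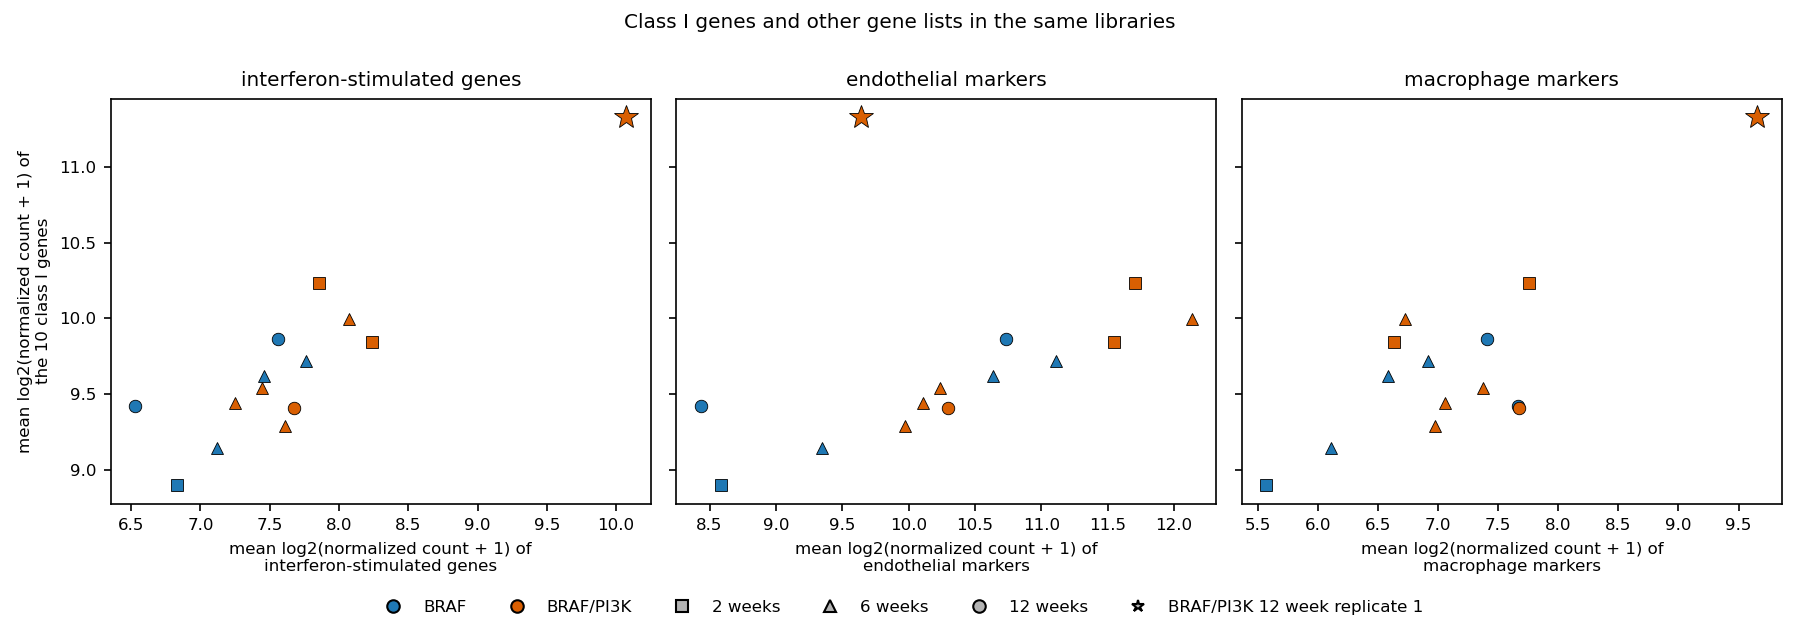
Mean log2(normalized count + 1) of the 10 class I genes in each BRAF and BRAF/PI3K library against that of the interferon-stimulated genes (left), endothelial markers (middle) and macrophage markers (right). The star, BRAF/PI3K 12 week replicate 1, is highest for interferon-stimulated genes and macrophage markers and low for endothelial markers, and without it the correlation with the endothelial markers is 0.868.

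Among 11536 genes with a mean of at least 100 normalized counts, those most like the mean of the 10 standardized class I genes over the 14 libraries were *Gbp2* (Pearson correlation 0.937), *LT629152.1* (0.899), *Gbp4* (0.892), *Cd53* (0.891) and *Cd274* (0.888). Without BRAF/PI3K 12 week replicate 1, none of these remained among the first 5, which were then *Bmpr2* (0.960), *Gpr146* (0.959), *Tspan18* (0.949), *Sema3c* (0.949) and *Acer2* (0.945). Over the 9 PGC1α libraries they were *Pdxk* (0.961), *Cfb* (0.930), *Sc5d* (0.875), *Muc20* (0.875) and *Ppp4r1l-ps* (0.863) of 9224 genes. The genes most like the class I genes thus changed with 1 library and with the table.

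Promoters of the class I genes were read because several of them were high together in 1 library. RefSeq windows for GRCm38.p6 (250 bases before the start and 50 from the start on) were given for 8 of the 10 genes, with a second window for *H2-K1* from another start, and 200 bases of 4 of them are shown, from position -180 to 20 around the start. Capitals mark matches to the interferon-stimulated response element GAAANNGAAA, to the CCAAT box and its reverse complement ATTGG, and to TGACG, the core of the cyclic AMP response element. The windows are chr2:122147507-122147706 (plus strand) for *B2m*, chr17:34000328-34000527 (minus strand) for *H2-K1*, chr17:35262914-35263113 (plus strand) for *H2-D1* and chr17:34187376-34187575 (plus strand) for *Tap1*.
B2m: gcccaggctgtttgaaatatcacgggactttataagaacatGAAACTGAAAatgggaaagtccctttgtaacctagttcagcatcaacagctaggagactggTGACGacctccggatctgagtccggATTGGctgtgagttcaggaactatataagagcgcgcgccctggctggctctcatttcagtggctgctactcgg
H2-K1: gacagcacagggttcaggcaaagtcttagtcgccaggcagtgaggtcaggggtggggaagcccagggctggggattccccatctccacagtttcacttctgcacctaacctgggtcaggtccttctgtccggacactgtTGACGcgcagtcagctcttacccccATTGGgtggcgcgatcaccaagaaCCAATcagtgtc
H2-D1: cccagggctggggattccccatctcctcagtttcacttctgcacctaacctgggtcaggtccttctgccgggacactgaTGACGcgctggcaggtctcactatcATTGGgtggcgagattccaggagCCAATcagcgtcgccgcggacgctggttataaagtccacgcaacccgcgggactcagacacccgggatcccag
Tap1: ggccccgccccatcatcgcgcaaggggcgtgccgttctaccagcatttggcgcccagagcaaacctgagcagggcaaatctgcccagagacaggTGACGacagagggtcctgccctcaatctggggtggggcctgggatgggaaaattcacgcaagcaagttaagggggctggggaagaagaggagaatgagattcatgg
In *B2m*, *H2-K1* and *H2-D1*, TGACG was followed by ATTGG with 20 bases between them. These letters are the cores of the X2 and Y elements of the conserved module through which NLRC5 acts. Counted on either strand, this arrangement was found in 31 of 32851 windows (0.0944%). TGACG or CGTCA was in a window of 5 of the 8 genes (20.8% of all windows), CCAAT or ATTGG in that of 6 genes (37.4%), GAAANNGAAA or its reverse complement in 1, that of *B2m* (3.44%), and TTCNNNGAA, the gamma-activated site, in 1, that of *Psmb8* (8.3%). The arrangement with 20 bases between was sought after TGACG had been seen in the windows, and no other spacing was counted. Its share of all windows is thus a description and not a test. The *H2-K1* and *H2-D1* windows share long stretches of sequence, so their matches are not independent. The windows of *Tap1* and *Psmb9* overlap, on opposite strands, so their matches are partly the same letters. In BRAF/PI3K 12 week replicate 1 the 3 genes with the arrangement stood at 2.72 (*B2m*), 5.09 (*H2-K1*) and 1.16 (*H2-D1*) times the median of the other libraries, and *Tap1* at 6.56 times. A match is a description of the letters and not of a bound site. Only exact letters were counted, so a window without a match can still hold a near form. The windows of *H2-K1* and *H2-D1* both hold TTTCACTTCT, which departs from TTTCNNTTTC in its last letters.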

How the data were processed

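Sorted tdTomato+ cells were sequenced by the authors after RNA extraction with the Qiagen RNeasy micro kit and Nugen Ovation Ultralow v2 libraries, and libraries with an RNA integrity number of 6 or less were left out. The deposited values are a signal, gene-level Salmon estimates on GRCm38 that the authors normalized with DESeq2 in Galaxy, separately for each table. Only 12.5% to 42.3% of low values in the first table, and 19.0% to 32.9% in the second, lay on whole steps (tolerance 0.02), so reads were not recovered. Columns with the authors' own fold changes and p values were not used. The 10 genes and the gene lists were chosen with earlier results of these data known, and lists are described by counts and medians. Genes named from the lists are the 2 highest and 2 lowest differences of a comparison unless stated otherwise. Genes with a mean of at least 10 were fitted on log2(normalized count + 1) with limma 3.58.1 in R 4.3.3 (trended variance, two-sided, Benjamini-Hochberg over all genes, threshold 0.05), with genotype alone over all weeks and with genotype by week groups otherwise. A log2 difference understates that of low genes because of the pseudocount of 1. The fit was tested on simulated data. Exact permutation tests, levels and correlations used Python 3.11.15 with scipy 1.17.1. Alternatives were pseudocount, filter, scaling, array weights, labelled sex, the replicate block and leaving out libraries. Samples sharing a replicate number did not deviate together in every pair (correlations from -0.467 to 0.211), so the numbers were not treated as pairs.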

Additional observations from a re-analysis of the deposited data

Results flagged for a closer look

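Of 50 gene and group combinations examined, 5 held a library whose gap to its nearest neighbour, as a share of the group's whole range on the log2 scale, passed Dixon's 95% limit, and chance alone gives about 1 in 20. *Tapbp*, the tapasin gene, stood apart in BRAF/PI3K 6 week replicate 1, the library with the highest endothelial marker sum, with a gap of 0.905 of the range of the 4 libraries. Over the 8 BRAF/PI3K libraries, 12 week replicate 1 stood apart for *H2-K1* (0.652) and for *Tap1* (0.695). Among the 4 PGC1α Null libraries, replicate 4 was low for *Tap1* (0.875), and replicate 1 was high for *Psmb10* (0.897), where the other 3 libraries differed by less than 1 normalized count.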

How the results depend on the processing

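None of the 10 class I genes passed in any comparison under any setting run. Among single genes, 31 of 535 alternative values were counted as reversed. These include the exact permutation p values of *Tap2* and *Psmb8*, which have no sign and were counted because the difference turned. All 10 genes were followed over all weeks and in PGC1α, but only *H2-K1* and *Tap1* at 12 weeks. The turns of other genes at 12 weeks given above are thus outside this count. For BRAF/PI3K against BRAF over all weeks, *H2-D1* was -0.16 with labelled sex as a factor, -0.19 with array weights and -0.17 without the 2 week libraries. *Psmb8* was -0.20, -0.16 and -0.0380 under these settings and -0.11 without both 12 week BRAF/PI3K libraries. The sex labels used as a factor went against *Eif2s3y* in both 12 week BRAF/PI3K libraries. *Psmb9* was -0.0534 with array weights and -0.0215 without the 2 week libraries, and *Tap2* was -0.11 without both 12 week BRAF/PI3K libraries. For PGC1α Null against Het, *Nlrc5* was -0.0173 with quantile normalization, -0.0320 with labelled sex and -0.12 with array weights, and *H2-D1* was 0.039 with array weights. The cause was not tested. Leaving out each library in turn gave, over all weeks, -0.12 to 0.18 for *H2-D1*, -0.25 to 0.44 for *Tap2* and -0.13 to 0.30 for *Psmb8*, with exact permutation p values of 0.969 (*Tap2*) and 0.665 (*Psmb8*) without BRAF/PI3K 12 week replicate 1. In PGC1α it gave -0.33 to 0.20 for *H2-D1*, -0.0091 to 1.03 for *Tap2* and -0.26 to 0.46 for *Nlrc5*. The median of the 10 genes ranged from -0.21 to 1.56 at 12 weeks, from -0.26 to 0.45 for 12 against 6 weeks in BRAF, from -0.28 to 1.52 in BRAF/PI3K and from -0.48 to 1.53 for the interaction. Where 1 library was left in a group, it was assumed to vary like the others.

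With the replicate block, 6 genes were called over all weeks (4 without it) and 0 in each other comparison between genotypes. *Nlrc5* in PGC1α was -0.26 in that fit. Each block lay within 1 week, so a fit with blocks cannot compare weeks. Its medians for 12 against 6 weeks (0.95 in BRAF and 1.65 in BRAF/PI3K) depended on which blocks served as reference and are not read as results. With the 12 week numbers crossed, an alternative chosen after seeing the data, 6 were called over all weeks and 0 at 12 weeks. Over all settings the genes called numbered 3 to 11 over all weeks, 0 to 268 at 2 weeks (268 without BRAF/PI3K 6 week replicate 1), 0 to 16 at 6 and at 12 weeks, 0 to 92 for 6 against 2 weeks in BRAF and 0 to 698 in BRAF/PI3K (698 without the same library), 0 to 3 and 0 to 25 for 12 against 6 weeks, 0 to 2 for the interaction and 0 to 3 in PGC1α. The files hold no reads, so what depth limits could not be separated from the spread between libraries.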
